A study of Homo sapiens with 18 samples.

Results

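Small nucleolar RNA (snoRNA) host genes were followed across 18 expression arrays of HEK293 cells, a line derived from human embryonic kidney. The host genes were SNHG1, SNHG3, SNHG5, SNHG6, SNHG7, SNHG8, SNHG12, SNHG15, SNHG16 and GAS5, and every row of the value table that lists 1 of these 10 symbols was taken. There were 17 such rows among 21214 rows with a gene symbol. The rows are transcript clusters, the probe groups that the array summarises into 1 value. Cells received a plasmid that expresses wild type RHOXF1, a plasmid for wild type RHOXF2, or the empty control vector, and RNA was taken 24 h or 48 h later. RHOXF1 and RHOXF2 are X-linked homeobox transcription factors of the reproductive system. Each of the 6 groups had 3 arrays, described as biological triplicates, and the p-values measure the spread between these arrays. All groups, the control included, went through transient transfection with a lipid reagent. The treatment text lists pCMV6-AC-GFP beside the 2 RHOX clones and does not say whether the clones themselves carry GFP. A bulk sample of transiently transfected cells also holds cells that took up no plasmid.

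Host genes of this kind are transcribed by RNA polymerase II, spliced, and carry snoRNAs inside their introns. The excised introns are trimmed to mature snoRNAs, which guide chemical modification of ribosomal RNA: C/D box snoRNAs (SNORD) guide 2'-O-methylation and H/ACA box snoRNAs (SNORA) guide pseudouridylation. The spliced host RNA often has no long reading frame and is commonly degraded by nonsense-mediated decay when it is translated, so that host RNA and snoRNA from the same transcript can have different lifetimes. SNHG1 and GAS5 are classical members whose introns carry a series of C/D box snoRNAs, and GAS5 was named for its accumulation in growth-arrested cells.

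The array reached 6 of the 10 hosts. SNHG1 was listed by 6 clusters, SNHG12 by 4, GAS5 by 3, SNHG3 by 2, and SNHG15 and SNHG16 by 1 each. SNHG5, SNHG6, SNHG7 and SNHG8 were listed by 0 clusters. Of the 17 clusters, 15 carried the RefSeq accession of exactly 1 hosted snoRNA together with the symbol of a host, and are named here by both, as in SNHG1/SNORD22. In these clusters a change of the host and a change of the snoRNA cannot be told apart. The 6 SNHG1 clusters name the same host gene yet hold different probes, so they are not 6 independent genes. The other 2 clusters were annotated with several transcripts: one lists SNHG3 with RCC1, the neighbouring gene for a chromatin-bound exchange factor of the Ran GTPase, and one lists SNHG12 with SNORA16A, SNORA61 and SNORA44. Of the 13 accessions of the SNHG3/RCC1 cluster, 4 currently belong to RCC1 and 0 to SNHG3, and 9 found no match. The other host clusters had no accession matched to their host either. Their accessions were that of the snoRNA or found no match, as did all 7 of the SNHG12 cluster of several transcripts. The host thus rests on the symbol in the annotation. A further 14 clusters were of snoRNAs of these hosts without the host: SNORD28 and SNORD30 of SNHG1, 7 SNORDs of GAS5, SNORD1A and SNORD1B of SNHG16, SNORA24 of SNHG8, and SNORD50A and SNORD50B of SNHG5.

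Hosts of this family are known for promoters whose transcripts begin with a run of C and T, the terminal oligopyrimidine start shared with ribosomal protein genes. The start regions of the 5 measured hosts held by the RefSeq promoter table are shown because these hosts are compared with one another across the arrays. Each runs from 30 bases before to 30 bases after the RefSeq start, on the gene's strand, in GRCh38.p14, and capitals mark the longest run of C and T that touches the window from 5 bases before to 10 after the start.
SNHG1, chr11:62855856-62855915, minus strand: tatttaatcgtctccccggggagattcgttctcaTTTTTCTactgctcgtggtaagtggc
GAS5, chr1:173869016-173869075, minus strand: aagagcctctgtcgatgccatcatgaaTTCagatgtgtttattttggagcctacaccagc
SNHG16, chr17:76557734-76557793, plus strand: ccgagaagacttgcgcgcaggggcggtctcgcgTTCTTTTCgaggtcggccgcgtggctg
SNHG3, chr1:28505913-28505972, plus strand: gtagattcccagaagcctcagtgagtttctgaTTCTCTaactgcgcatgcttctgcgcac
SNHG12, chr1:28581844-28581903, minus strand: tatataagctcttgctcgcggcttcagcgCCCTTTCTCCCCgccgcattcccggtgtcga

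The run was 12 bases long in SNHG12, a length reached by 3.76% of the 35116 promoters in the table. It was 8 bases long in SNHG16 (12.8% of promoters reached this), 7 in SNHG1 (17.9%), 6 in SNHG3 (26.3%) and 3 in GAS5 (79.4%). So SNHG12 had an uncommonly long run at its start and GAS5 did not at the start RefSeq gives. The letters TATAA, searched on the gene's strand from 45 to 16 bases before the start, were found in 4 of the 8 hosts searched (SNHG12, SNHG5, SNHG7 and SNHG8) and in 4.09% of all promoters. Any host row on chromosome 8 was left out of the search, so it would not be in these counts. TAAT, the core of homeodomain binding sites, was searched on both strands over the 300 bases of the table and was found in 4 of these 8 hosts and in 50.2% of all promoters. CACGTG was found in 1 of 8, SNHG7, and in 7.26% of all. These are matches of letters and not measured sites.

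The arrays bore out the labels for the transfected genes. The RHOXF1 cluster read 12.13 to 12.32 on the log2 scale in RHOXF1 cells and 5.67 to 6.56 in control cells, and the cluster shared by RHOXF2 and RHOXF2B read 12.78 to 12.96 in RHOXF2 cells and 6.44 to 7.12 in control cells. In RHOXF2 cells the RHOXF1 cluster read 6.94 to 9.12, above all control arrays. Array medians over all clusters ran from 6.68 to 6.82. Of 8 HEK293 markers, 5 lay above the array median on all arrays (NEFM, NEFL, VIM, KRT8 and KRT18) and PAX2 lay below it on all. Of 10 markers of other cell types 9 lay below it on all arrays, with COL1A1 the exception. The leading principal component separated the times, at -17.2 to -8.71 for arrays at 24 h and 9.36 to 26.3 for arrays at 48 h, apart from RHOXF2 replicate 3 at 48 h, which lay at -4.48. That array had the lowest value of all 18 in 9 of the 17 host clusters (52.9%), in 7 of the 14 separate snoRNA clusters, in 28.3% of the 244 clusters of other snoRNAs and in 6.4% of all clusters, so the main results that use it are given with and without it.

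At 24 h no host cluster was called against control. In limma's moderated test, adjusted by Benjamini-Hochberg over all 21214 clusters at 0.05, 0 of 17 were called for RHOXF1 against control (0.00471% of all clusters were) and 0 of 17 for RHOXF2 against control (0.00943%). An unadjusted p under 0.05 was reached by 0 of 17 in either comparison, where 4.76% and 7.99% of all clusters reached it. The median difference of the 17 clusters was -0.12 for RHOXF1 and 0.02 for RHOXF2 on the log2 scale, against medians of 0.00 over all clusters for both. GAS5/SNORD47 read 9.49, 10.10 and 9.84 in control cells at 24 h, 9.78, 10.22 and 9.99 in RHOXF1 cells and 10.02, 10.20 and 10.10 in RHOXF2 cells, and the ranges overlapped. Its difference from control was 0.30 ± 0.15 (log2, SE, n = 3 per group) for RHOXF2, with an adjusted p of 0.666 in limma. SNHG1/SNORD22 differed by 0.03 ± 0.19 in the same comparison, with all 3 groups at 24 h between 8.31 and 8.65.

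At 48 h the clusters of SNHG1 and GAS5 read lower in RHOXF1 and RHOXF2 cells than in control, but no host cluster passed the adjusted test. The count called was 0 of 17 for RHOXF1 (0.00943% of all clusters) and 0 of 17 for RHOXF2 (0.0943%). All 6 SNHG1 clusters and all 3 GAS5 clusters had a negative difference for each of the RHOX genes, as had 12 of 17 host clusters for RHOXF1 (47.4% of all clusters) and 15 of 17 for RHOXF2 (46.1%). Without control replicate 1, 2 of the 3 GAS5 clusters did for each gene, since GAS5/SNORD80 turned to 0.20 for RHOXF1 and 0.12 for RHOXF2. An unadjusted p under 0.05 was found for 4 of 17 host clusters in RHOXF1 cells (7.22% of all clusters) and for 10 of 17 in RHOXF2 cells (12.2%). Without RHOXF2 replicate 3 the latter count was 5 of 17, and that over all clusters went from 2578 to 1057. All 3 RHOXF1 arrays lay below all 3 control arrays in 6 of 17 (5.39% of all clusters), and all 3 RHOXF2 arrays did in 5 of 17 (5.24%). Without control replicate 1 the RHOXF2 count was 11 of 17, and 3083 of all 21214 clusters then did not overlap in this direction. The 2 comparisons use the same control arrays, so they are not independent of each other.

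**Figure D1:**
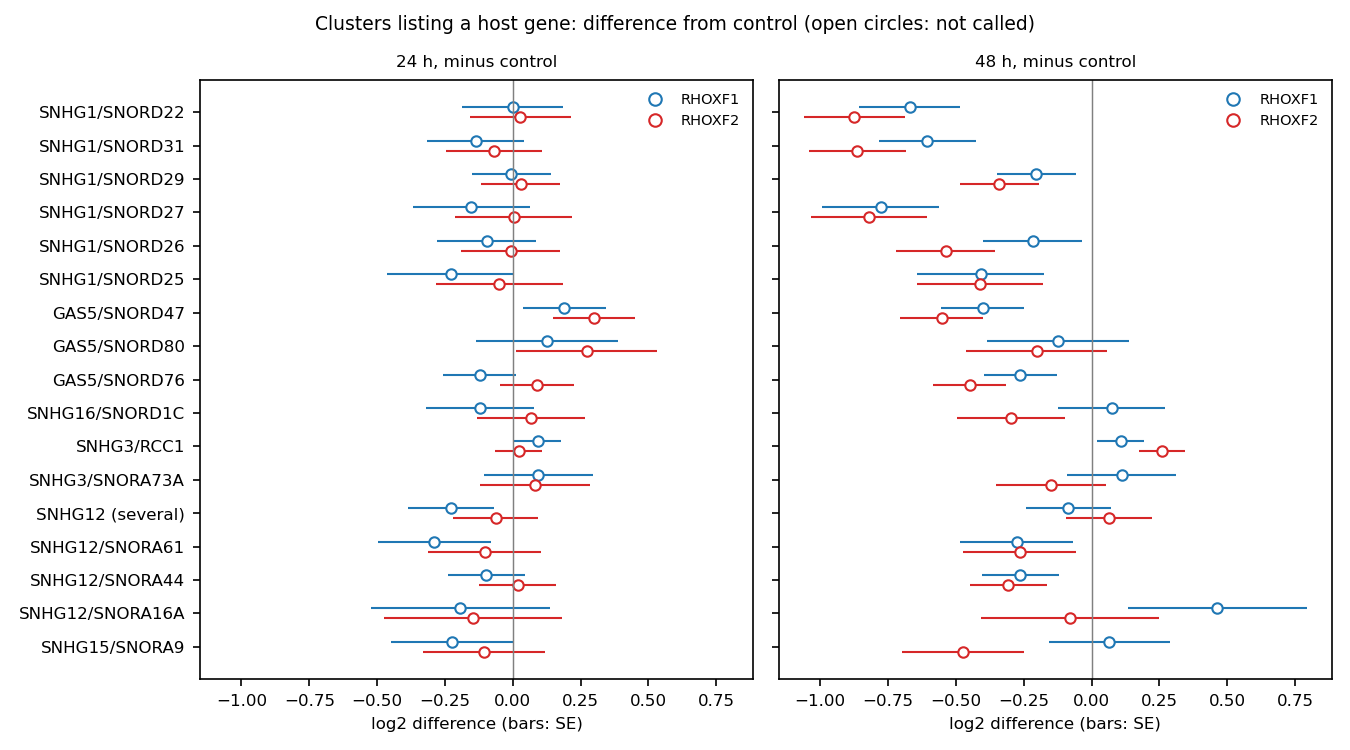
Log2 difference from control of the 17 clusters that list a snoRNA host, with limma's standard error as the bar, at 24 h (left) and 48 h (right), for RHOXF1 (blue) and RHOXF2 (red). Open circles are differences that were not called, which holds for all points, and the SNHG1 and GAS5 clusters lie left of 0 for both genes at 48 h.

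SNHG1/SNORD22 holds the snoRNA after which SNHG1 was originally named a host. It read 8.53, 9.49 and 9.13 on the control arrays at 48 h, 8.38, 8.48 and 8.27 in RHOXF1 cells, and 8.35, 8.42 and 7.75 in RHOXF2 cells. The control arrays were spread over a wide range and all lay above the arrays of either RHOX gene, with control replicate 1 nearest to them. The difference from control was -0.87 ± 0.19 for RHOXF2, 1.83-fold lower, with an adjusted p of 0.0942 in limma, and -0.67 ± 0.19 for RHOXF1 with an adjusted p of 0.489.

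SNHG1/SNORD31 had the same layout. It read 7.91, 8.78 and 8.39 in control cells at 48 h, 7.75, 7.78 and 7.75 in RHOXF1 cells and 7.57, 7.69 and 7.23 in RHOXF2 cells. The difference was -0.86 ± 0.18 for RHOXF2, with an adjusted p of 0.0910, and -0.60 ± 0.18 for RHOXF1, with an adjusted p of 0.489, both by limma. SNHG1/SNORD27 was the third cluster without overlap in either comparison: control cells read 7.49, 8.07 and 8.08, RHOXF1 cells 7.08, 7.24 and 6.99, and RHOXF2 cells 6.91, 7.38 and 6.89. Its differences were -0.82 ± 0.22 for RHOXF2 and -0.78 ± 0.22 for RHOXF1, with adjusted p of 0.197 and 0.489.

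These 3 clusters rest on the control arrays as much as on the RHOX arrays. Without control replicate 1 at 48 h, all 3 were called for RHOXF2, at -1.13 for SNHG1/SNORD22 (adjusted p 0.00533), -1.09 for SNHG1/SNORD31 (0.00542) and -1.02 for SNHG1/SNORD27 (0.0465), in the limma fit that pools the spread over the other groups. Calls over all clusters went from 20 to 125 of 21214 when that control array was left out. Without RHOXF2 replicate 3 the same differences were -0.66, -0.73 and -0.73, with adjusted p of 0.688, 0.688 and 0.888. Which array is left out thus moves SNHG1/SNORD22 between -1.13 and -0.66, and its adjusted p from 0.00533 to 0.688.

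The other SNHG1 clusters differed less. SNHG1/SNORD26 read 10.17, 10.57 and 10.19 in control cells at 48 h and 10.19, 9.87 and 9.26 in RHOXF2 cells, a difference of -0.54 ± 0.18 (adjusted p 0.264) with overlap, and its lowest value was again that of replicate 3, without which it was -0.28. SNHG1/SNORD29 differed by -0.34 ± 0.15 and SNHG1/SNORD25 by -0.41 ± 0.23, with adjusted p of 0.356 and 0.499, or -0.23 and -0.092 without replicate 3. Each of these 3 clusters overlapped between RHOXF2 and control, while the RHOXF1 arrays of SNHG1/SNORD26, at 10.09, 10.03 and 10.16, all lay just below the control arrays. The median of the 6 SNHG1 clusters was -0.68 for RHOXF2, and -0.47 without replicate 3, while that of all clusters was 0.01 and 0.00.

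**Figure D2:**
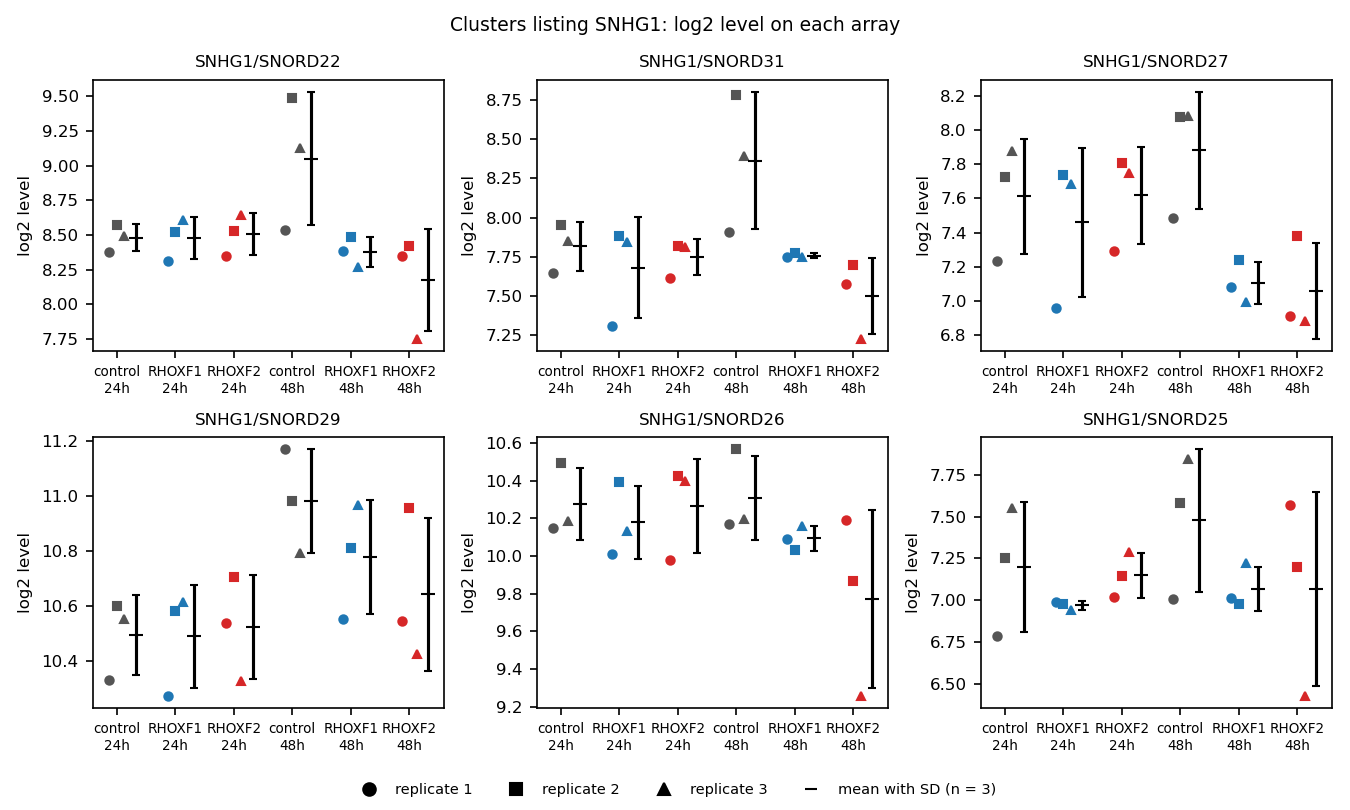
Log2 level of the 6 clusters that list SNHG1 on each of the 18 arrays, by group, with replicates as symbols and the mean and SD of 3 arrays beside them. In the upper row the control arrays at 48 h reach 9.49, 8.78 and 8.08 and lie above all RHOX arrays of that time, and the red triangle, RHOXF2 replicate 3 at 48 h, is the lowest point in 5 of the 6 panels.

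GAS5 was read by 3 clusters. GAS5/SNORD47 read 9.97, 9.92 and 10.06 in control cells at 48 h, 9.62, 9.51 and 9.62 in RHOXF1 cells, and 9.54, 9.70 and 9.05 in RHOXF2 cells. Here the control arrays lay close together, and all 6 RHOX arrays lay below them. The difference was -0.55 ± 0.15 for RHOXF2, 1.47-fold lower, with an adjusted p of 0.213 in limma, and -0.40 ± 0.15 for RHOXF1 with an adjusted p of 0.619. Without RHOXF2 replicate 3 it was -0.36, with an adjusted p of 0.899.

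GAS5/SNORD76 read 10.68, 10.58 and 10.53 in control cells, 10.24, 10.33 and 10.43 in RHOXF1 cells, and 10.18, 10.50 and 9.76 in RHOXF2 cells, again without overlap. It differed by -0.45 ± 0.14 for RHOXF2 and by -0.26 ± 0.14 for RHOXF1, with adjusted p of 0.228 and 0.722, and by -0.26 for RHOXF2 without replicate 3. GAS5/SNORD80 did not follow this layout. Control cells read 9.72, 8.87 and 8.63 at 48 h and RHOXF2 cells 8.53, 9.53 and 8.56, so the groups overlapped, and the difference was -0.20 ± 0.26 with an adjusted p of 0.803.

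The 10 host clusters with a C/D box snoRNA all had a negative difference for RHOXF2 at 48 h, with a median of -0.49 on the log2 scale, or -0.27 without replicate 3. For RHOXF1 9 of these 10 were negative and the median was -0.33. The exception was SNHG16/SNORD1C, at 0.07 ± 0.20. The 5 clusters with an H/ACA box snoRNA had a median of -0.26 for RHOXF2, with all 5 negative, or -0.17 with 3 negative without replicate 3, and 0.07 for RHOXF1, with 2 negative. The 2 classes differ in host as well as in snoRNA type, and no test of the difference between them was made. The median of all 17 was -0.34 for RHOXF2 and -0.22 for RHOXF1, and without RHOXF2 replicate 3 the former was -0.23.

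The H/ACA hosts were led by SNHG15 and SNHG12. SNHG15/SNORA9 read 9.90, 10.43 and 10.25 in control cells at 48 h, 10.16, 10.52 and 10.10 in RHOXF1 cells, and 9.96, 9.88 and 9.32 in RHOXF2 cells. The RHOXF1 arrays overlapped the control, and the RHOXF2 difference of -0.47 ± 0.22 had an adjusted p of 0.406, and was -0.27 without replicate 3. SNHG12/SNORA44 differed by -0.31 ± 0.14 for RHOXF2 and -0.26 ± 0.14 for RHOXF1, with adjusted p of 0.396 and 0.734. SNHG12/SNORA61 differed by -0.26 ± 0.21 and -0.28 ± 0.21 and SNHG12/SNORA16A by -0.08 ± 0.33 and 0.46 ± 0.33, in the same order. Without RHOXF2 replicate 3 the SNHG12/SNORA16A difference for RHOXF2 turned to 0.20. The SNHG12 cluster of several transcripts read 9.53, 9.36 and 9.60 in control cells, 9.26, 9.73 and 9.24 in RHOXF1 cells and 9.34, 9.82 and 9.51 in RHOXF2 cells, with full overlap and differences of -0.09 ± 0.16 for RHOXF1 and 0.06 ± 0.16 for RHOXF2.

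SNHG3/RCC1 ran the other way. It read 9.70, 9.77 and 9.62 in control cells at 48 h, 9.80, 9.75 and 9.86 in RHOXF1 cells and 9.87, 9.89 and 10.11 in RHOXF2 cells. All RHOXF2 arrays lay above the control arrays, the only host cluster for which this held (6.59% of all clusters), and the difference was 0.26 ± 0.09 with an adjusted p of 0.255, or 0.18 without replicate 3. SNHG3/SNORA73A differed by -0.15 ± 0.20 in the same comparison, with an adjusted p of 0.813, and by 0.00083 without replicate 3. SNHG16/SNORD1C read 9.71, 9.15 and 9.26 in control cells and 9.31, 9.43 and 8.49 in RHOXF2 cells, a difference of -0.30 ± 0.20 with an adjusted p of 0.575, which was -0.0057 without replicate 3.

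**Figure D3:**
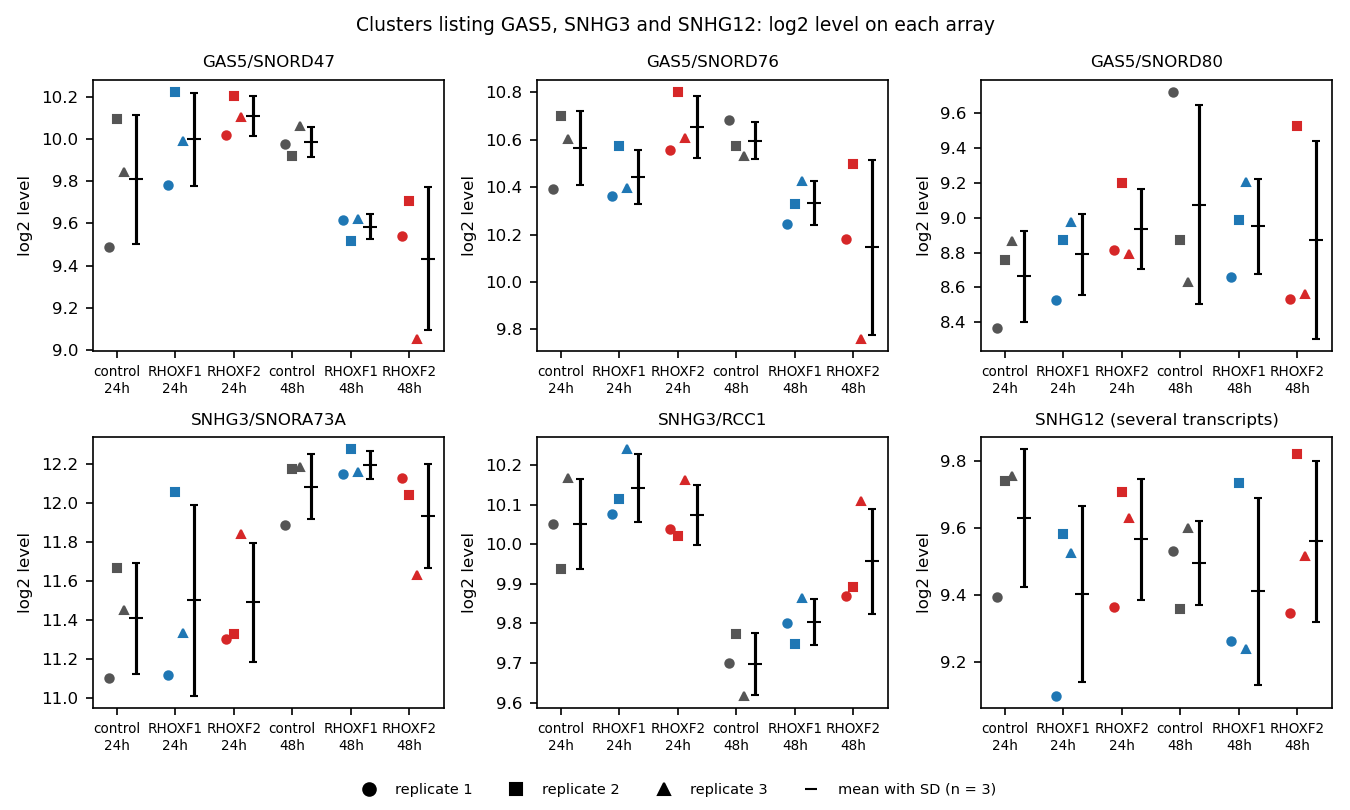
Log2 level of the clusters that list GAS5 (top row) and of 3 clusters that list SNHG3 or SNHG12 (bottom row) on each array, by group, with replicates as symbols and the mean and SD of 3 arrays. GAS5/SNORD47 lies at 9.92 or above in control cells at 48 h and at 9.70 or below in the RHOX cells of that time, and SNHG3/RCC1 is lower at 48 h than at 24 h in control cells.

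RHOXF1 and RHOXF2 were also set against each other. The test called 0 of 17 host clusters at 24 h (0.0141% of all clusters) and 0 of 17 at 48 h (0.0519%), and an unadjusted p under 0.05 was found for 0 and for 1 (1.7% and 3.52% of all clusters). That 1 was SNHG15/SNORA9 at 48 h, which was higher in all RHOXF1 arrays than in any RHOXF2 array by 0.54 ± 0.22, with an adjusted p of 0.998, or by 0.34 without RHOXF2 replicate 3. The difference of each RHOX effect between 48 h and 24 h called 0 of 17 clusters for RHOXF1 (0% of all clusters, with 4.7% at an unadjusted p under 0.05) and 0 of 17 for RHOXF2 (0.0141%, with 8.75%). At an unadjusted p under 0.05 the counts of host clusters were 2 and 5 of 17. The RHOXF2 effect on GAS5/SNORD47 was lower at 48 h by -0.85 ± 0.22 (adjusted p 0.488), and that on SNHG1/SNORD22 by -0.90 ± 0.26 (0.512), or by -0.66 and -0.69 without RHOXF2 replicate 3 at 48 h. So the lower levels at 48 h were not shown to differ from the effect at 24 h.

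Between the times, host clusters were called in control, RHOXF1 and RHOXF2 cells and most often in control cells, as were clusters of the whole array. In control cells 5 of 17 host clusters were called at 48 h against 24 h, 4 higher and 1 lower, where 17.8% of all clusters were called (9.89% higher and 7.89% lower). The median of the 17 was 0.26, against -0.03 over all clusters. In RHOXF1 cells 1 of 17 was called, lower (4.42% of all clusters in either direction and 1.35% lower), and in RHOXF2 cells 1 of 17, also lower (1.24% and 0.259%). The medians were 0.01 and -0.20, and the latter was -0.11, with 10 in place of 14 clusters lower, without RHOXF2 replicate 3 at 48 h. The control arrays at 48 h enter this comparison and those with the RHOX genes, so the higher control values and the lower RHOX differences are not separate observations. The sample titles give the gene, the time and a replicate number but no order of processing. Time and such an order therefore cannot be told apart.

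SNHG3/SNORA73A rose with time in control cells. It read 11.10, 11.67 and 11.45 at 24 h and 11.89, 12.18 and 12.18 at 48 h, without overlap, a rise of 0.68 ± 0.20 or 1.60-fold with an adjusted p of 0.0289 in limma. In RHOXF1 cells the difference was 0.69 ± 0.20, from 11.12, 12.05 and 11.33 to 12.15, 12.28 and 12.16, with an adjusted p of 0.0575. The RHOXF2 cells gave 0.44 ± 0.20 with an adjusted p of 0.278. The control call was lost without replicate 1 or 3 at 24 h (adjusted p 0.119 and 0.0523) and without replicate 2 or 3 at 48 h (0.0834 and 0.0919).

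SNHG3/RCC1 fell over the same interval. The control arrays read 10.05, 9.94 and 10.17 at 24 h and 9.70, 9.77 and 9.62 at 48 h, a fall of -0.35 ± 0.09 with an adjusted p of 0.00978. RHOXF1 cells read 10.08, 10.11 and 10.24 and then 9.80, 9.75 and 9.86, a fall of -0.34 ± 0.09 with an adjusted p of 0.0335. The RHOXF2 difference was -0.12 ± 0.09, with an adjusted p of 0.542. The call in control cells stayed under 0.05 whichever array was left out, but not in a fit of the control arrays alone (0.0602), whereas that in RHOXF1 cells was lost without replicate 2 or 3 at 24 h (0.0880 and 0.152) or without any of the replicates at 48 h (0.0883 to 0.103). The 2 clusters that list SNHG3 therefore moved in opposite directions in control cells.

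Of the SNHG1 clusters, 3 rose with time in control cells. SNHG1/SNORD22 read 8.38, 8.57 and 8.50 at 24 h and rose by 0.57 ± 0.19 (adjusted p 0.0426), SNHG1/SNORD31 read 7.64, 7.95 and 7.85 and rose by 0.55 ± 0.18 (0.0420), and SNHG1/SNORD29 went from 10.33, 10.60 and 10.55 to 11.17, 10.98 and 10.79, by 0.49 ± 0.15 (0.0293). Replicate 1 at 48 h lay within the 24 h range for SNHG1/SNORD22 and for SNHG1/SNORD31, and SNHG1/SNORD29 alone did not overlap. Without control replicate 2 at 48 h the values were 0.35, 0.33 and 0.49, with adjusted p of 0.204, 0.202 and 0.0684. Without replicate 1 at 24 h they were 0.52, 0.46 and 0.40, with adjusted p of 0.115, 0.137 and 0.105, and the median of the 17 clusters was 0.073. Leaving out replicate 2 or 3 at 24 h, or replicate 3 at 48 h, also ended the calls of SNHG1/SNORD22 and SNHG1/SNORD31, and leaving out replicate 1 at 48 h that of SNHG1/SNORD29 (0.0914).

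GAS5/SNORD47 fell with time in RHOXF2 cells. It read 10.02, 10.20 and 10.10 at 24 h and 9.54, 9.70 and 9.05 at 48 h, without overlap, a fall of -0.67 ± 0.15, 1.60-fold, with an adjusted p of 0.0384 in limma. GAS5/SNORD76 differed by -0.51 ± 0.14 with an adjusted p of 0.0656, by -0.31 (0.137) without replicate 3 at 48 h, and by -0.68 (0.0484) without replicate 2. In control cells GAS5/SNORD47 differed by 0.18 ± 0.15 and in RHOXF1 cells by -0.41 ± 0.15, with adjusted p of 0.436 and 0.128. The call in RHOXF2 cells was lost without replicate 2 or 3 at 24 h (0.165 and 0.142) and without replicate 1, 2 or 3 at 48 h (0.0823, 0.0780 and 0.0659), and the difference without replicate 3 at 48 h was -0.49.

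**Figure D4:**
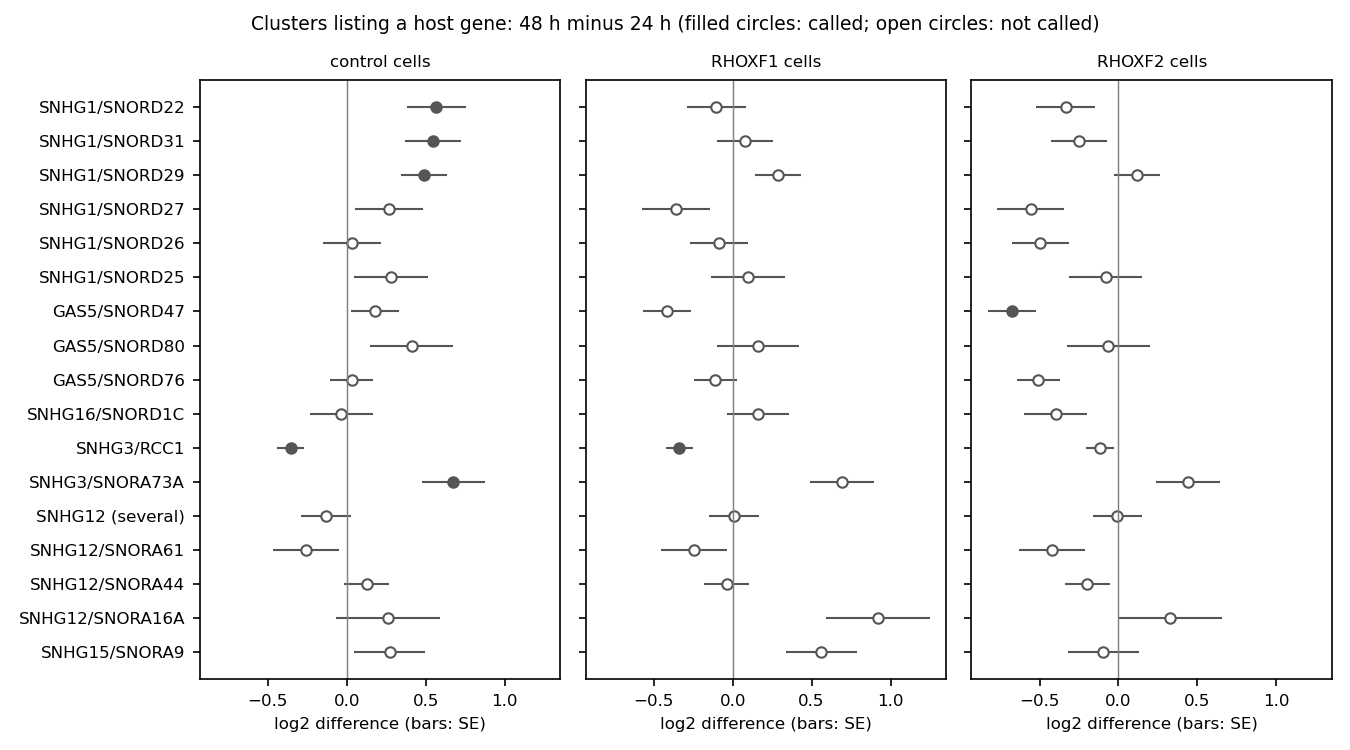
Log2 difference between 48 h and 24 h of the 17 host clusters in control cells, RHOXF1 cells and RHOXF2 cells, with limma's standard error as the bar. Filled circles were called (5 in control cells, 1 in RHOXF1 cells and 1 in RHOXF2 cells), and open circles were not.

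The snoRNAs that have a cluster of their own are read by probes other than those of the host clusters. The host clusters of GAS5, SNHG1 and SNHG16 each carry a snoRNA too, so the host transcript is not read apart from it. None of the 14 separate snoRNA clusters was called against control for either RHOX gene at either time, where 0.00471% to 0.0943% of all clusters were called. At 48 h all 14 were lower in RHOXF2 cells, with a median of -0.31, or -0.22 with 13 of 14 lower without replicate 3, and 12 of 14 were lower in RHOXF1 cells, with a median of -0.26. SNORD28 of SNHG1 read 10.35, 10.64 and 10.58 in control cells at 48 h, 9.92, 10.13 and 10.15 in RHOXF1 cells and 10.02, 10.21 and 9.66 in RHOXF2 cells, with no overlap for either RHOX gene. Its differences were -0.46 ± 0.18 for RHOXF1 and -0.56 ± 0.18 for RHOXF2, with adjusted p of 0.637 and 0.246. SNORD77 of GAS5, a dim cluster at 4.38 to 5.70 over all arrays, differed by -0.60 ± 0.17 and -0.51 ± 0.17, with adjusted p of 0.489 and 0.255.

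Of the hosts without a cluster, SNHG8 was represented by SNORA24, at -0.19 ± 0.17 for RHOXF2 at 48 h, and SNHG5 by SNORD50A and SNORD50B, at -0.02 ± 0.25 and -0.21 ± 0.24. The adjusted p of these 3 ran from 0.706 to 0.988. SNORD1A of SNHG16 differed by -0.27 ± 0.15, with an adjusted p of 0.491. Clusters of other snoRNAs and small Cajal body RNAs also read lower: 189 of 244 for RHOXF2 at 48 h, with a median of -0.19, or -0.11 without replicate 3, and 163 of 244 for RHOXF1, with a median of -0.08. A lower reading at 48 h was thus shared with snoRNAs outside these hosts, and no test of the difference between the sets was made.

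At 24 h all 7 separate snoRNA clusters of GAS5 read higher in RHOXF2 cells than in control, as did 48.8% of all clusters, by at most 0.39 and with no adjusted p under 0.505. With time, all 14 separate snoRNA clusters had a negative difference in RHOXF2 cells, and 5 of the 14 were called (1.24% of all clusters were, 0.259% lower). SNORD75 read 9.38, 9.27 and 9.42 at 24 h and 8.39, 8.60 and 8.53 at 48 h, a fall of -0.85 ± 0.18 with an adjusted p of 0.0312. SNORD77 fell by -0.90 ± 0.17, SNORD81 by -0.58 ± 0.14 and SNORD78 by -0.56 ± 0.12, all in introns of GAS5, and SNORD1A of SNHG16 by -0.66 ± 0.15, with adjusted p from 0.0242 to 0.0447. These 5 did not overlap between the times, as 8.11% of all clusters did not with the later time lower, and GAS5/SNORD47 fell in the same comparison. Without RHOXF2 replicate 3 at 48 h 2 of the 5 remained called, SNORD77 and SNORD75, while calls over all clusters went from 264 to 801 of 21214. The calls of SNORD77 and SNORD75 were lost without RHOXF2 replicate 1 or 2 at 48 h (adjusted p 0.0641 to 0.139). Each of the 5 calls was lost without RHOXF2 replicate 2 at 24 h (adjusted p 0.119 to 0.168) and without replicate 3 at 24 h (0.0952 to 0.187). In RHOXF1 cells SNORD75 fell by -0.76 ± 0.18, from 9.27, 9.38 and 9.39 to 8.47, 8.83 and 8.47, with an adjusted p of 0.0241, and the call was lost without replicate 2 or 3 at 24 h or replicate 1 or 3 at 48 h (0.0817 to 0.107). In control cells SNORD75 differed by -0.41 ± 0.18, from 9.14, 9.20 and 9.30 to 8.64, 9.43 and 8.35, with an adjusted p of 0.115.

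Whether hosts move with their snoRNAs was read across the 9 arrays of each time, with a host cluster on one axis and the mean of its snoRNAs' clusters on the other. There were 10 such relations, and p was taken from exact two-sided permutation tests and adjusted by Benjamini-Hochberg over the 10. The permutation treats the 9 arrays of a time as interchangeable. At 24 h 8 of 9 arrays were most like an array of their own replicate number, so p can be too small there. SNHG1 and GAS5 were read by their cluster with the highest mean level, SNHG16 by its 1 cluster, and SNHG12 and SNHG3 by their cluster of several transcripts, since their other clusters served as the snoRNA values. The clusters that stood for SNHG1, GAS5 and SNHG16 each also carry 1 snoRNA. For these hosts a relation can therefore be that of 1 snoRNA with others, and the host itself was not read apart. GAS5, read by GAS5/SNORD76, followed the mean of its 7 separate snoRNA clusters at 48 h with Pearson's r = 0.83 (exact permutation p 0.00307, adjusted 0.0307) and Spearman's rho = 0.90 (adjusted 0.0203). Without the 2 arrays farthest from the median GAS5 level, RHOXF2 replicate 3 among them, r was 0.77 and the adjusted exact p 0.321, so the relation did not pass without those arrays. At 24 h r was 0.77 and rho 0.63, with adjusted exact p of 0.0541 and 0.138, and r without 2 arrays was 0.48. With deviations from the group means in place of levels, r at 48 h was 0.72, with an adjusted exact p of 0.0645. The arrays span 3 groups whose means differ, so the relation in levels also holds the differences between groups.

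SNHG12 followed the mean of its 3 H/ACA clusters with r = 0.77 at 24 h (rho 0.77, adjusted exact p 0.0541 and 0.107) and r = 0.43 at 48 h (rho 0.63, adjusted exact p 0.308 and 0.138). Those 3 clusters list SNHG12 too, so host and snoRNA share annotation there. SNHG1, read by SNHG1/SNORD29, gave r = 0.32 at 24 h and 0.58 at 48 h against SNORD28 and SNORD30 (rho 0.33 and 0.60), with adjusted exact p of 0.447 and 0.134. With the mean of all 6 SNHG1 clusters as the host value, a choice made after the values were seen, r was 0.81 and 0.92, with adjusted exact p of 0.0162 and 0.0126. SNHG16 gave 0.59 and 0.61 (rho 0.65 and 0.25, adjusted exact p 0.134 for r at both times), and the latter turned to -0.73 without the 2 farthest arrays, so it rests on those arrays. SNHG3/RCC1 against SNHG3/SNORA73A gave 0.12 at 24 h and -0.66 at 48 h (rho 0.27 and -0.60, adjusted exact p 0.761 and 0.134), and 0.18 at 48 h without 2 arrays.

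**Figure D5:**
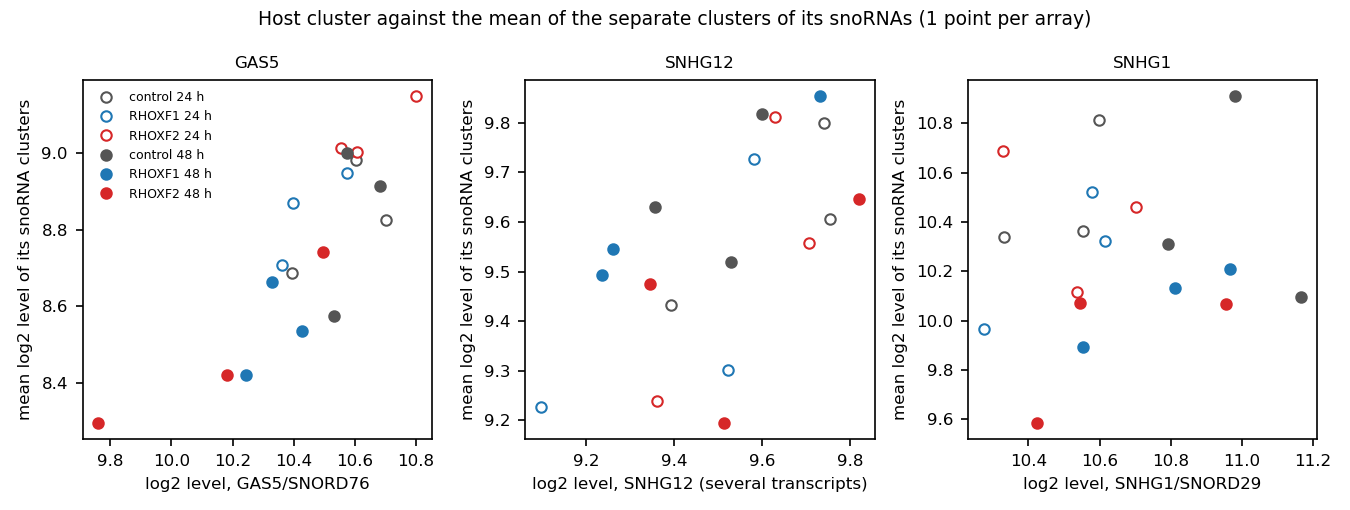
Level of a host cluster (horizontal axis, log2) against the mean level of the clusters of its snoRNAs (vertical axis, log2) on each of 18 arrays, for GAS5, SNHG12 and SNHG1, with open circles for 24 h and filled circles for 48 h. The GAS5 points run from lower left to upper right, with RHOXF2 replicate 3 at 48 h at 9.76 as the leftmost point, and the SNHG1 points scatter.

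The same hosts were also set against the mean of the 244 clusters of other snoRNAs, which are not listed for these hosts, as a comparison added after the values were seen. GAS5/SNORD76 followed that mean with r = 0.90 at 24 h and 0.84 at 48 h (rho 0.92 and 0.72, adjusted exact p of r 0.00252 and 0.00767 over these 10 relations), and r was 0.87 and 0.74 without the 2 farthest arrays. SNHG16/SNORD1C gave 0.95 and 0.54 (rho 0.92 and 0.25, adjusted exact p 0.00252 and 0.158), or 0.96 and -0.27 without 2 arrays. SNHG12 gave 0.87 and 0.47 (rho 0.87 and 0.52, adjusted exact p 0.00314 and 0.215), or 0.92 and 0.49 without 2. SNHG1/SNORD29 gave 0.58 and 0.83 (rho 0.70 and 0.75, adjusted exact p 0.152 and 0.0146), or 0.71 and 0.77 without 2, and SNHG3/RCC1 gave -0.20 and -0.69 (adjusted exact p 0.598 and 0.0528). For GAS5, SNHG12 and SNHG1, r with the snoRNAs of other hosts was at least as high as r with their own at both times. For SNHG16 r was 0.59 with its own and 0.95 with others at 24 h, and 0.61 and 0.54 at 48 h. The own means of GAS5, SNHG12 and SNHG1 hold 7, 3 and 2 clusters and the other mean 244. A mean of more clusters is less noisy, so r with own and with other snoRNAs cannot be compared on equal terms. For GAS5 at 48 h the values nearly tied, at 0.83 with its own and 0.84 with others. There rho was 0.90 with its own and 0.72 with others, and r without 2 arrays 0.77 and 0.74. For SNHG12 at 48 h rho was 0.63 with its own and 0.52 with others. The mean of the SNHG1 clusters was not set against the other snoRNAs. The array mean of those 244 clusters, from 6.59 on RHOXF2 replicate 3 at 48 h to 7.03 on RHOXF1 replicate 2 at 48 h, moved with the host values. Its part in the relation of hosts to their own snoRNAs was not tested. At 24 h this array mean read 6.62 to 6.67 on the arrays of replicate 1 and 6.87 to 6.96 on those of replicate 2. The exact p at 24 h takes no account of this likeness by replicate number and can be too small.

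By likeness over all 18 arrays, counting clusters with 1 gene symbol, SNHG1/SNORD29 was closest to SNORD15A (Pearson's r = 0.91), PLA2G6 (0.90) and KLHL17 (0.88), and GAS5/SNORD76 to TTC14 (0.86), SNORD4A (0.86) and IL18BP (0.84). SNHG15/SNORA9 was closest to SNORD15B (0.91), SNORA14B (0.89) and SCARNA17 (0.85), all small RNAs themselves. SNHG12/SNORA16A was closest to TMEM141 (0.90), SNORA14B (0.89) and COX7A2 (0.88), SNHG16/SNORD1C to CCNH (0.81), PPA2 (0.79) and SH3KBP1 (0.79), and SNHG3/SNORA73A to IRF2BPL (0.91), MGAT4B (0.90) and FAH (0.89). SNHG3/RCC1 was closest to CCT5, PWP2 and RRP1B, each at 0.95, and the SNHG12 cluster of several transcripts to CLK1 (0.83), MTRF1L (0.82) and FBXO8 (0.81). These r values span the arrays of both times, so they also hold differences between 24 h and 48 h.

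Other genes of the snoRNA pathway were read from lists. In the 4 comparisons with control 0.00471% to 0.0943% of all clusters were called, so few calls were to be had in any list. Among clusters of other noncoding snoRNA hosts (5 of 14 symbols measured, 7 clusters), 0 were called against control in any of the 4 comparisons, and EPB41L4A-AS1 rose with time in control cells by 0.44 ± 0.10 (adjusted p 0.00848) and in RHOXF1 cells by 0.39 ± 0.10 (0.0400). The smallest p of this list for RHOXF2 at 48 h was that of SNHG17/SNORA71B, at -0.30 ± 0.13 with an adjusted p of 0.342. Protein-coding hosts (34 of 38 symbols, 74 clusters) had 0 calls against control. A cluster of RPL7A with SNORD36A and SNORD36C differed by -0.56 ± 0.13 for RHOXF2 at 48 h (adjusted p 0.137) and by -0.50 ± 0.13 for RHOXF1 (0.457), and SNORD6/TAF1D by -0.97 ± 0.28 for RHOXF2 (0.213). With time in control cells, where 9.89% of all clusters were called higher and 7.89% lower, 3 of the 74 rose, those of EIF4A2, RPL17 and RPL12, and 5 fell, those of RPL27A, HSPA8, TPT1, NCL and TCP1. EIF4A2, a translation helicase, rose by 0.65 ± 0.15 and RPL27A, a ribosomal protein gene, fell by -0.72 ± 0.16. RPL27A fell in RHOXF1 and RHOXF2 cells too, by -0.66 ± 0.16 and -0.75 ± 0.16. The other calls of this list with time were higher: 2 clusters of RPL13 rose in RHOXF1 cells by 0.42 ± 0.11 and 0.45 ± 0.11 (adjusted p 0.0365 and 0.0316), and H19/RPS12 rose in RHOXF2 cells by 0.53 ± 0.13 (0.046).

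The proteins that build snoRNA particles (18 of 18 symbols, 21 clusters) had 0 calls against control and 9 calls in control cells with time, all lower (17.8% of all clusters were called, 7.89% lower). RUVBL1, an ATPase of particle assembly, fell by -0.43 ± 0.09 (adjusted p 0.00419), SHQ1, an assembly factor of H/ACA particles, by -0.38 ± 0.09 (0.00668), NOP58, a core protein of C/D particles, by -0.38 ± 0.11 (0.0233), and NOLC1, ZNHIT6, RPAP3, NUFIP1 and 2 clusters of NHP2 fell as well. In RHOXF1 and RHOXF2 cells 0 of 21 were called with time, where 4.42% and 1.24% of all clusters were, so few calls were to be had there. RUVBL1 read higher in RHOXF2 cells than in control at 48 h by 0.32 ± 0.09, with an adjusted p of 0.216. Of the nonsense-mediated decay factors (13 of 16 symbols, 28 clusters) 0 were called against control, and EIF4A3 and RBM8A, both of the exon junction complex, fell with time in control cells by -0.39 ± 0.09 and -0.37 ± 0.12 (adjusted p 0.00792 and 0.0427), 2 of 28 against the 7.89% of all clusters called lower. In bulk RNA a lower level can mean fewer cells that hold the transcript or less of it per cell, and the 2 cannot be told apart.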

How the data were processed

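The authors deposited log2 RMA values for 33297 transcript clusters, made with Affymetrix Expression Console 3.1 per the submitters' processing notes. Sample descriptions give a Human Gene ST array, while the series text speaks of an exon array. RMA subtracts background, equalises the arrays' distributions and summarises probes, so a shift shared by all clusters cannot be seen. Annotation symbols came from the platform table: 19460 clusters had 1 symbol, 1754 several and 12083 none. limma 3.58.1 in R 4.3.3 (lmFit, eBayes) was fitted to the 21214 named clusters with 1 mean per group over 18 arrays (12 residual and 6.5 prior degrees of freedom, prior SD 0.124), two-sided, with Benjamini-Hochberg adjustment over all clusters at 0.05. SE is limma's, and SD is that of 3 arrays. The fit was tested on simulated data. No dim cluster was filtered and no array left out. The number of arrays limits the precision, and no depth applies.

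Always named were the 10 hosts. Of their snoRNAs and of the other lists, those called and those with the smallest p against control were named, up to 3 per list, and for likeness the 3 single-symbol clusters with the highest r. Members and lists were chosen with earlier results of these data known. Of 37 listed hosted snoRNAs, 34 were found in RefSeq (GRCh38.p14), all 34 inside their host. Alternatives were a replicate block, only the groups compared, repeated quantile and cyclic loess normalization, a filter at the median level, all clusters, trended robust variances and leaving out each array.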

Additional observations from a re-analysis of the deposited data

How the results depend on the processing

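No called difference changed sign under any setting run. Over 2711 single-cluster comparisons of a setting with the reported value, 2468 kept direction and side of the threshold, 77 lost a call, 15 gained one, and 151 turned sign while uncalled in both, with reported sizes of at most 0.25. The count against control stayed 0 at 24 h. Same-numbered arrays had residual correlations above 0.1 in 8 of 9 pairs at 24 h and 2 of 9 at 48 h, with 0.062 the lowest at 24 h, and 8 of 9 arrays at 24 h and 2 of 9 at 48 h were most like their own number. The numbers were not treated as pairs because not every pair passed 0.1; for 24 h this is a narrow miss. At 48 h the replicate block gave 1 call for RHOXF1 (SNHG1/SNORD27, adjusted p 0.0423) and 2 for RHOXF2 (SNHG1/SNORD31, 0.0222, and SNHG1/SNORD27, 0.00712). Leaving out 1 array gave 0 to 3 for RHOXF2 at 48 h, the 3 without control replicate 1, where 125 of 21214 clusters were called. With time in control cells the count of 5 was 2 with only the groups compared, 3 with repeated quantile normalization, 3 with cyclic loess, 1 with all clusters tested and 1 to 4 leaving out 1 array, where the median ran from 0.073 to 0.32. In RHOXF1 cells the count of 1 was 2 with only the groups compared, repeated quantile normalization, cyclic loess, the filter at the median level or the replicate block across both times, 0 with all clusters tested, and 0 to 1 leaving out 1 array. In RHOXF2 cells the count of 1 was 0 with only the groups compared, cyclic loess or all clusters tested, 3 with the replicate block across both times, and 0 to 1 leaving out 1 array. A block within each time was not run for these comparisons of times, since it cannot enter them; the block across both times was added after the data were seen. Host and snoRNA r became 0.81 (SNHG1, 24 h), 0.92 (SNHG1, 48 h) and 0.87 (GAS5, 24 h) with the mean of the host's clusters, 0.79 for SNHG12 at 24 h with cyclic loess, 0.72 for GAS5 at 48 h with deviations from the group means, and, without the 2 farthest arrays, 0.77 for GAS5, -0.73 for SNHG16 and 0.18 for SNHG3 at 48 h. The causes of these shifts were not tested. SNORD77, at 4.38 to 5.70, lay below the median of every array, so its signal over background was low.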
